A study of Mus musculus with 12 samples.

Results

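Spleen CD4 T cells that carried transcripts of both Itgb1, the integrin beta-1 chain, and Ly6c2, a surface protein of the Ly6 family, were described here as Itgb1 Ly6c2 effector T cells. A cell was taken from the 4 spleen libraries when it held at least 3 unique molecular identifiers (UMIs) of Cd3d, Cd3e and Cd3g together, at least 2 of Itgb1 and at least 1 of Ly6c2, and none of S1pr5, Cx3cr1 or Klrg1. These limits took 1483 cells of 9164 CD3-positive and 10222 spleen cells, in a series of 32763 cells and 12 libraries. They were compared with the 3718 CD3-positive spleen cells that held no UMI of Itgb1 or Ly6c2, called both-zero cells below. These could hold S1pr5, Cx3cr1 or Klrg1. Integrin beta-1 pairs with several alpha chains into receptors for matrix proteins and for VCAM-1, and high beta-1 integrin is known from antigen-experienced T cells. Ly6C marks effector and memory T cells in mice, and its level on CD4 T cells is known to follow activation. Fucosyltransferase 7, encoded by Fut7, builds the sugar that P- and E-selectin bind on leukocytes entering inflamed tissue.

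The study profiled single CD4 T cells from recipients of Th1 cells whose interleukin-23 receptor gene was intact on 1 allele (control, Il23r wt/eGFP) or replaced on both (KO, Il23r eGFP/eGFP), so both groups carried a reporter allele. Spleen and colon lamina propria each had 2 control and 2 KO libraries, numbered 1 and 2. From the small intestinal lamina propria, and likewise from the colon epithelium, there was 1 library of each genotype, numbered 2. The sources used here do not give age, sex, host strain or the time after transfer, and the labels do not say whether numbered samples came from separate animals, so p-values measure the spread between these samples only. The receptor gene itself was nearly undetected in the effector cells, with 7 UMIs of Il23r (0.840 and 0 in control and 2.51 and 0.749 in KO, per 1000000 UMIs of these cells in the library, the unit called CPM below), and 3′ reads do not check the reporter allele.

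The spleen libraries held 981 to 4079 cells and 6260216 to 13615291 UMIs. They gave 334 effector cells in control 1, 402 in control 2, 146 in KO 1 and 601 in KO 2. The effector cells were deeper than the both-zero cells, with median UMIs per cell of 6062 against 4401 in control 1, 2914.5 against 2156.5 in control 2, 6976.5 against 4785.5 in KO 1 and 3813 against 2656 in KO 2. A limit on UMIs of 2 genes favours deep cells, so the comparisons with both-zero cells in spleen and colon were also run with both-zero cells matched in UMIs per cell, and the comparisons with other classes were not. The libraries numbered 1 were deeper than those numbered 2, and the number equals the batch column of the deposited cell table. In all, 12 effector cells (0.809%) had a barcode also present in another spleen library.

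The T-cell part of the label held in these cells. All 10 T-cell markers measured were present, and UMIs were seen in 96.0% of effector cells for the kinase Lck, 94.5% for Cd2, 93.9% for the adaptor Lat and 93.1% for Thy1. Cd4 was seen in 66.3% of effector and 44.8% of both-zero cells at full depth, and in 35.04% and 33.9% (mean of 4 libraries) with every cell thinned to 1500 UMIs. Cd8a was seen in 0.202% (3 cells) and Cd8b1 in 2.09% (31 cells) of effector cells. B-cell markers summed to 0.749 to 2.98 CPM over the libraries, with Cd79a, Ms4a1 and Pax5 at 0. Neutrophil markers summed to 0 to 9.73, with Csf3r and Mmp8 at 0. Plasma-cell markers summed to 89.3 to 155 CPM in effector cells, with Jchain and Mzb1 at 0 and 1 UMI each of Sdc1 and Derl3, so that nearly all of the sum was Xbp1 (seen in 38.3% of effector and 16.5% of both-zero cells). Natural killer T-cell markers summed to 71.4 to 115 CPM, with Zbtb16 at 0, Slamf1 in 27.5% of effector and 9.41% of both-zero cells and Cd1d1 in 11.5% and 9.63%. Dendritic-cell markers summed to 139 to 391 CPM in effector cells and 133 to 914 in both-zero cells, highest in KO 1 in both, with Flt3 and Cd209a at 0 and Bst2 the most frequent (40.9% of effector cells). Natural killer markers summed to 23.9 to 57.8 and monocyte markers to 191 to 287 CPM in effector cells, with Cd14 at 0, against 335 and 719.7 in the both-zero cells of KO 1, which held the most of both. Globin-led erythroid markers were uneven, at 25.2 and 2.23 in control and 86.3 and 118 in KO effector cells. The regulatory T-cell factor Foxp3 had 2 UMIs in all.

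The genes that chose the cells, and 4 further markers proposed for them from these data, are given here as levels without a test. The 4 markers stayed in the comparisons with other spleen classes below, where their differences are descriptions only. Both sets stayed in the comparison of KO with control. All levels are CPM, the UMIs of a gene per 1000000 UMIs of all cells of that class in the library. In effector cells Itgb1 (chr8:128685654-128733200) measured 1461 and 1372 CPM in the control libraries and 1274 and 1648 in the KO libraries, and Ly6c2 (chr15:75108158-75111970) 1221 and 1106 CPM in the control libraries and 627 and 941 in the KO libraries. Itgb1 was even across the libraries, and Ly6c2 was lowest in KO 1. Anxa1 (chr19:20373428-20390944), a phospholipid-binding annexin, measured 444 and 447 CPM in the control libraries and 459 and 540.5 in the KO libraries, against 40.0, 61.0, 52.7 and 24.2 CPM in the same order in both-zero cells. Fut7 (chr2:25423267-25426374) measured 72.7 and 65.5 CPM in the control libraries and 188 and 61.0 in the KO libraries, against 3.26, 4.25, 15.5 and 4.84 CPM. Its KO 1 value was the highest in both classes, and the classes did not overlap. Ifitm1 (chr7:140967221-140969825), an interferon-induced membrane protein, measured 1773 and 1043 CPM in the control libraries and 3619 and 837 in the KO libraries, against 45.7, 158, 169 and 56.7 CPM. Pglyrp1 (chr7:18871331-18890459), a peptidoglycan recognition protein, measured 309 and 443 CPM in the control libraries and 291 and 479 in the KO libraries, against 121, 227, 112 and 264 CPM. Pglyrp1 was the least separated of the 4: its lowest effector value was near its highest both-zero value.

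The 4 further markers were also counted cell by cell. With every cell thinned to 1500 UMIs, Anxa1 was seen in 44.9% of effector and 5.20% of both-zero cells (mean of 4 libraries), Ifitm1 in 35.6% and 7.90%, Pglyrp1 in 40.5% and 19.5%, and Fut7 in 13.05% and 0.834%. Thinning left out 22 effector and 538 both-zero cells that were too shallow. At full depth the shares were 73.0% and 8.96% for Anxa1, 39.9% and 7.91% for Ifitm1, 74.4% and 37.3% for Pglyrp1, and 24.9% and 1.45% for Fut7. Of effector cells, 6.20% held none of the 4, 21.5% held 1, 37.0% held 2, 24.5% held 3 and 10.9% held all 4, and of both-zero cells 54.2% held none and 0.108% all 4, counted at full depth, where deeper cells can hold more of any marker.

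Mean levels of Anxa1, Nrp1 and Ccl5 were graded with the Itgb1 UMIs of the cells. The 202 cells with exactly 2 Itgb1 UMIs, just inside the limit, measured a mean of 286 CPM of Anxa1, 74.9 of Nrp1 and 4138 of Ccl5 over the libraries. The 256 cells with 1 Itgb1 UMI and Ly6c2, just outside it, measured 205, 28.3 and 5121 CPM. The 1113 cells with 4 or more Itgb1 UMIs measured 505, 124 and 1569 CPM. Median UMIs per cell, pooled over the libraries, were 2900.5, 2937 and 4673 in the same order. KO 1 gave 12 cells with exactly 2 Itgb1 UMIs and 17 with 1. UMIs of a single gene vary by sampling, so these bins cannot tell a gradient from a gap. At the other limits, 393 effector cells had exactly 1 Ly6c2 UMI and 24 had exactly 3 CD3 UMIs, while 20 cells with 2 CD3 UMIs met the other limits.

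**Figure D1:**
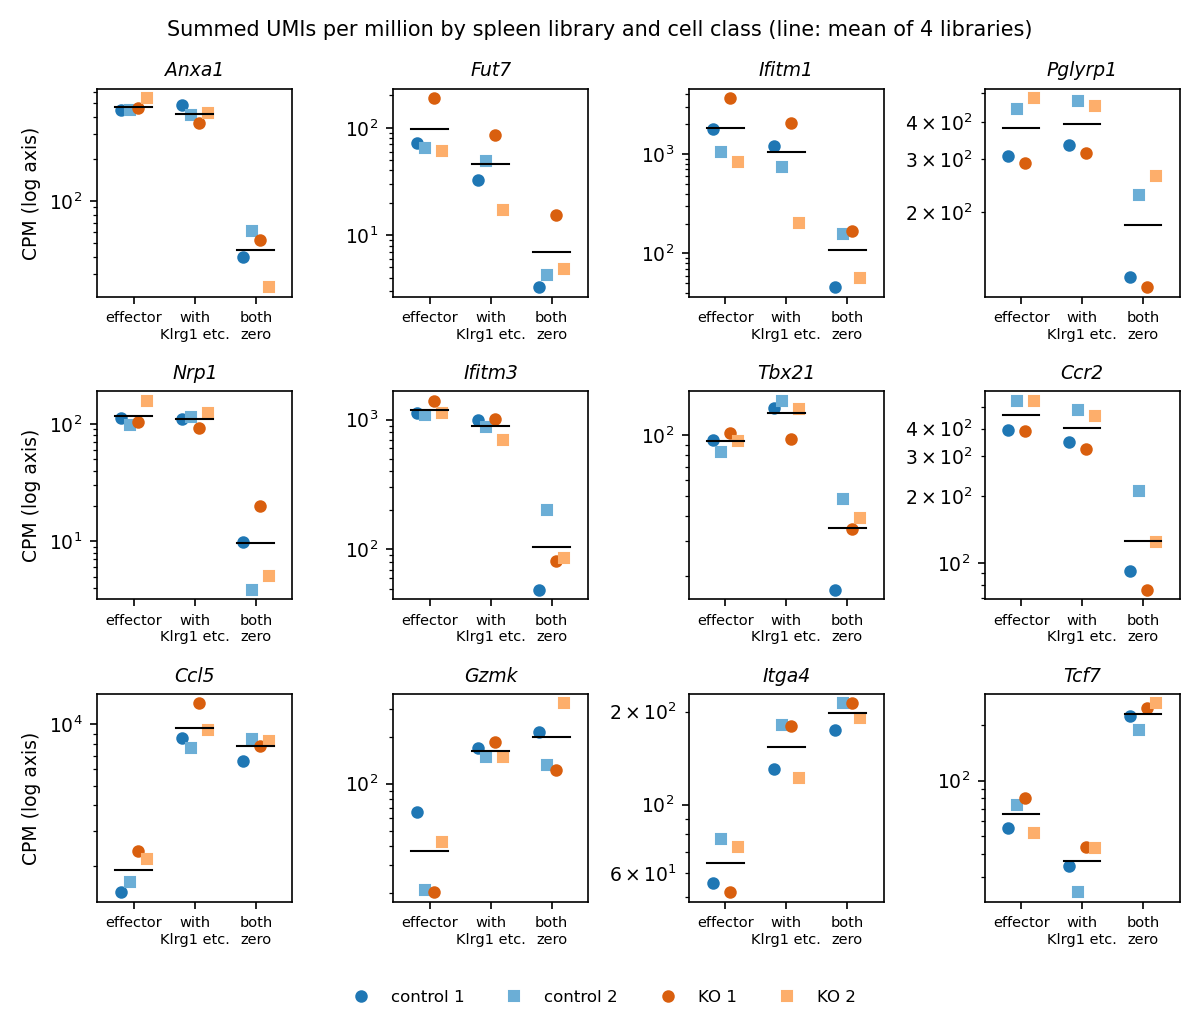
Levels of 12 genes in the 4 spleen libraries (points, CPM on a log axis) for effector cells, for cells that met the Itgb1 and Ly6c2 limits but held S1pr5, Cx3cr1 or Klrg1, and for both-zero cells, with a line at the mean. Anxa1, Fut7, Ifitm1 and Nrp1 lie higher in effector than in both-zero cells in every library, while Ccl5, Gzmk, Itga4 and Tcf7 lie lower.

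All other genes were compared between the 2 classes within each library, with edgeR's quasi-likelihood test on UMIs summed per library and class. A gene was called at a Benjamini-Hochberg adjusted p under 0.05 over all genes tested. The cells were chosen on Itgb1 and Ly6c2, so genes that vary with either one, or with depth, differ by that choice. Of 8157 genes, 1939 were called (23.8%), 1013 higher in effector cells (12.4%) and 926 lower (11.4%), and counts within gene lists are to be read against these shares. The median log2 fold change over all genes was -0.01. Without the library term 653 genes were called, without control 1 1204 and without KO 2 966.

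Among called genes at a mean of 20 CPM or more, the largest rise was in Nrp1, the semaphorin and VEGF co-receptor neuropilin-1. It measured 112 and 99.0 CPM in the control libraries and 105 and 158 in the KO libraries in effector cells and 9.79, 3.85, 20.2 and 5.07 CPM in both-zero cells, with no overlap (log2 fold change 4.27 ± 0.37, SE, adjusted p = 0.00124). Csf1, the macrophage colony-stimulating factor, measured 31.9, 17.1, 59.5 and 47.2 CPM against 8.15, 2.23, 6.20 and 2.54 (3.27 ± 0.30, adjusted p = 8.86e-06). Sema4a, a semaphorin known to act on T cells, measured 166, 169.7, 163 and 191 CPM against 30.2, 33.4, 32.6 and 49.3 (2.23 ± 0.10, adjusted p = 1.07e-09). Sema4a varied little between the libraries of a class. Lmna, the nuclear lamin A/C gene, rose by 2.21 ± 0.18 (adjusted p = 1.08e-06) and Spef2, a sperm flagellar gene, by 2.46 ± 0.20 (adjusted p = 3.89e-07). Both were highest in KO 1 among effector libraries, at 147 and 115 CPM. The lectin-like receptor genes Klrc1 (NKG2A) and Klrc2 (NKG2C) rose by 2.87 ± 0.54 and 2.33 ± 0.47 (adjusted p = 0.0454 and 0.0224), and AA467197 by 2.93 ± 0.47 (adjusted p = 0.0319). These 3 calls were lost without control 1 (2.67, 2.18 and 2.72) and without KO 1 (2.91, 2.30 and 2.83), and those of Klrc1 and AA467197 also without KO 2 (2.45 and 2.75). Klrc1 and Klrc2 are close copies, so the counting may split their reads.

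Among the same genes the steepest fall was in Ccl4, a chemokine of activated T cells. It measured 2.52 and 0 CPM in the control libraries and 5.03 and 4.87 in the KO libraries in effector cells against 206, 38.5, 150.5 and 298 CPM in both-zero cells (-5.88 ± 0.19, adjusted p = 1.33e-11). Izumo1r, which encodes folate receptor 4, measured 18.5, 6.70, 5.03 and 7.49 CPM against 217, 110.2, 129 and 175 (-4.05 ± 0.15, adjusted p = 6.66e-11). With the limit lowered to 1 Itgb1 UMI the Ccl4 difference was -2.80, adjusted p = 0.235, no longer called. Further large falls were in Fam101b (-3.14 ± 0.18), Igfbp4, a binding protein of insulin-like growth factors (-2.84 ± 0.32), the inhibitory receptors Lag3 (-2.75 ± 0.33) and Cd160 (-2.74 ± 0.19), Ramp1, which forms the CGRP receptor (-2.72 ± 0.33), the factor Tox (-2.63 ± 0.20), the ATP-gated channel P2rx7 (-2.62 ± 0.23) and the mitochondrial gene Chchd10 (-2.58 ± 0.25), all called.

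Among adhesion genes, the alpha-4 chain that pairs with both beta-1 and beta-7 was lower in the cells chosen for beta-1. Itga4 measured 55.9 and 77.4 CPM in the control libraries and 52.0 and 73.0 in the KO libraries in effector cells and 175, 213, 213 and 190.5 CPM in both-zero cells (-1.57 ± 0.10, adjusted p = 5.91e-08). Every effector value was below every both-zero value. Itgb7, the partner of alpha-4 in the gut-homing integrin, measured 1164, 1066, 1150.5 and 1171 CPM against 722, 952, 831 and 711 (0.53 ± 0.09, adjusted p = 5.59e-04). Of 14 integrin chains and partners tested beyond Itgb1, 3 rose (Itgb7, the beta-2 chain Itgb2 at 0.43 ± 0.08 and Itgb1bp1 at 0.52 ± 0.10) and 4 fell (Itga4, Itgav at -0.78 ± 0.24, and the integrin ligands Icam1 at -0.42 ± 0.14 and Icam2 at -0.48 ± 0.11), with a median of 0.03. The Icam1 and Itgav calls were lost without control 1 (-0.51 and -0.70) and without KO 2 (-0.46 and -0.78), and Icam1 also without KO 1 (-0.30).

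Genes for the making of selectin ligands leaned higher, beside Fut7 itself. Of 10 tested, 5 rose and 1 fell (median 0.30). Selplg, the protein scaffold of the P-selectin ligand, measured 785, 898, 852 and 791 CPM against 515, 751, 602 and 508 (0.52 ± 0.08, adjusted p = 2.06e-04). Spn (CD43) rose by 0.49 ± 0.07, the sialyltransferase St3gal4 by 0.76 ± 0.17, the hyaluronan receptor Cd44 by 0.35 ± 0.10 and the sulfotransferase Tpst2 by 0.31 ± 0.08. Several of these calls were lost when 1 library was left out: Cd44 without KO 1 (0.28) or KO 2 (0.30), Tpst2 without control 1 (0.25) or KO 2 (0.24), and St3gal4 without KO 2 (0.58).

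The Ifitm genes, which encode membrane proteins that restrict virus entry, were higher alongside Ifitm1. Ifitm2 measured 1611 and 2039.9 CPM in the control libraries and 2045 and 1652 in the KO libraries in effector cells against 138, 454, 245 and 157 CPM (3.03 ± 0.30, adjusted p = 0.00678), and Ifitm3 1116 and 1089 CPM in the control libraries and 1391 and 1122 in the KO libraries against 48.9, 203, 82.2 and 85.5 CPM (3.55 ± 0.45, adjusted p = 0.0187). Both were separated in all 4 libraries, and control 2 had the highest both-zero level of each. The Ifitm2 call was lost without KO 1 (3.01), and Ifitm3 without control 1 (3.32), KO 1 (3.43) or KO 2 (3.48). The 3 genes lie close together on chromosome 7 and are similar in sequence, so their counts may share reads. Because they were higher together, the 250 bases before each RefSeq start site (GRCm38.p6, the series' mm10 build) are shown, 5′ to 3′ on the gene's strand, with any match to the interferon-stimulated response element GAAANNGAAA on either strand in capitals. The windows are chr7:140967826-140968075 (plus strand) for Ifitm1, chr7:140955962-140956211 (minus strand) for Ifitm2 and chr7:141010745-141010994 (minus strand) for Ifitm3.
Ifitm1: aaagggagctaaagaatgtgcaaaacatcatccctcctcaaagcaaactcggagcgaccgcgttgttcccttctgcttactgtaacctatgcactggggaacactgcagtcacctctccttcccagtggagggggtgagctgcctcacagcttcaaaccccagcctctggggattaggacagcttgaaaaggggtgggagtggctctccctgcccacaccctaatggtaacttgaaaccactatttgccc
Ifitm2: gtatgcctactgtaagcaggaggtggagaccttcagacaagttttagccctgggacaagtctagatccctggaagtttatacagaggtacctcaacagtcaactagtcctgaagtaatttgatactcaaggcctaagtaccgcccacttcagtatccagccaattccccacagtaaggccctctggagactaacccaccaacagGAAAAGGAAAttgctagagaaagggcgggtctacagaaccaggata
Ifitm3: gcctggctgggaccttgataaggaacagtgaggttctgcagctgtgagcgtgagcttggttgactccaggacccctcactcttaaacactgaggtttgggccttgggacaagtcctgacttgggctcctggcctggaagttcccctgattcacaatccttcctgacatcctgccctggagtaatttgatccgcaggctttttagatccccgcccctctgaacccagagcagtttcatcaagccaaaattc

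The element was found in the Ifitm2 window, at bases -46 to -37 from the start site, and in neither other window. The Ifitm1 window lies inside the Ifitm1 gene span given above, which starts further upstream. The bases before that earlier start were not searched. The element was in 978 of 32851 promoter windows of that length (2.98%), and in 8 of the 15 genes of the interferon-stimulated list that matched the RefSeq table (22 listed). A listed gene counted if any of its windows held the element, so the share over single windows is not a like measure. Counted by gene, it was in 2 of 18 genes of the Th1 list and 0 of 21 of the annexin, S100 and cytoskeleton list. A match is a description of the letters only. The other interferon-stimulated genes did not go with the Ifitm genes: of 20 tested, 1 rose (Igtp, 0.39 ± 0.09) and 8 fell (median -0.35). Usp18 fell by 1.96 and Isg15 by 0.87 on the log2 scale. Without the library term, 0 of 20 passed in either direction (median -0.35). Of 7 Ly6 and Ifitm genes tested, 5 rose, namely Ifitm2, Ifitm3, Ly6a (0.51 ± 0.08), Ly6e (0.38 ± 0.08) and Ly6g5b (0.95 ± 0.24), and 1 fell, Ly6c1 (-0.97 ± 0.27), with a median of 0.59. Ly6c1 (chr15:75044018-75048830) is a near-identical neighbour of Ly6c2, so its value is uncertain, and its call was lost without control 1 (-1.14) or KO 1 (-0.98), and it was -0.58 without control 2. Those of Ly6g5b and Ly6e were lost without KO 2 (0.84 and 0.34), and Ly6g5b also without control 1 (0.82).

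Genes of annexins, S100 proteins, galectins and the cytoskeleton were the most one-sided list: of 24 tested, 21 rose and 0 fell (median 0.92). Lists were chosen with earlier results of these data known, so these counts are descriptions. S100a4, a calcium-binding protein of motile cells, measured 3182 and 2013 CPM in the control libraries and 2755 and 2242 in the KO libraries against 701, 797, 745 and 699 CPM (1.78 ± 0.11, adjusted p = 1.30e-06). Lgals1, galectin-1, measured 8721 and 8853 CPM in the control libraries and 9844 and 11003 in the KO libraries against 2251, 4693, 2724 and 3503 CPM (1.61 ± 0.18, adjusted p = 0.00223). Capg, an actin-capping protein, measured 608, 621, 759 and 766 CPM against 175, 257, 220.3 and 262 (1.60 ± 0.09, adjusted p = 8.70e-09). All 3 genes were higher in effector cells in every library, with no overlap. S100a10, the partner of annexin A2, rose by 1.02 ± 0.08 and the giant scaffold Ahnak by 1.11 ± 0.11. Without control 1 Lgals1 was 1.50, adjusted p = 0.0519. With both-zero cells matched in depth 19 of 24 rose and 0 fell, and with every cell thinned 20 of 23 (medians 0.72 and 0.75).

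The Th1 list was split. Of 20 genes tested, 10 rose and 3 fell (median 0.38). Tbx21, the master factor of Th1 cells, measured 94.9 and 82.6 CPM in the control libraries and 102 and 93.2 in the KO libraries against 17.1, 48.2, 34.1 and 38.7 CPM (1.36 ± 0.21, adjusted p = 0.00307), and Ifng, the Th1 cytokine, 90.7 and 43.9 CPM in the control libraries and 47.8 and 103 in the KO libraries against 27.7, 35.5, 34.1 and 50.0 CPM (0.94 ± 0.18, adjusted p = 0.00383). Tbx21 did not overlap between the classes, but the lower Ifng effector values lay within the both-zero range, and Ifng was 0.84, adjusted p = 0.0537 without KO 2. Within each library Ifng was higher in the effector cells. Il12rb2, the signalling chain of the IL-12 receptor, rose by 1.68 ± 0.20 and Id2, an effector regulator, by 1.20 ± 0.10 (adjusted p = 2.16e-05 and 7.41e-06). Cxcr3, the Th1 chemokine receptor, did not pass (-0.13 ± 0.09, adjusted p = 0.322). The genes that fell were Ccl5, Eomes and Tnf. Ccl5 (chr11:83525778-83530518), a chemokine of effector T cells, measured 1492 and 1683 CPM in the control libraries and 2375 and 2175 in the KO libraries against 6636, 8428, 7830.2 and 8279 CPM (-2.02 ± 0.10, adjusted p = 2.31e-08), and every effector value was below every both-zero value. Eomes, the sister factor of Tbx21, fell by 3.72 ± 0.25 and Tnf by 1.01 ± 0.28, the latter not without KO 1 (-0.82) or KO 2 (-1.08). The Ccl5 call depended on which cells were compared: it was -1.06, adjusted p = 0.131 when cells with S1pr5, Cx3cr1 or Klrg1 were kept in, -1.30, adjusted p = 0.202 when both classes were drawn to equal depth, and -0.77, adjusted p = 0.329 without both-zero cells that held Eomes or Gzmk.

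Killing genes were mixed: of 14 tested, 6 rose and 3 fell (median 0.99). Nkg7, a granule membrane protein, measured 2056, 2291, 1772 and 2677 CPM against 1059, 1759.9, 907 and 1947 (0.70 ± 0.10, adjusted p = 2.35e-04), and Serpinb9, which inhibits granzyme B, rose by 1.54 ± 0.12. Gzmk, granzyme K, measured 65.5 and 20.8 CPM in the control libraries and 20.1 and 42.3 in the KO libraries against 213, 131, 123 and 326 CPM (-2.42 ± 0.20, adjusted p = 1.64e-04). Lamp1, the lysosomal membrane protein, fell by 1.68 and the cystatin gene Cst7 by 1.18 on the log2 scale. Gzma and Gzmb did not pass (1.11 ± 0.95, adjusted p = 0.508, and 0.07 ± 0.51, adjusted p = 0.956), and the sign of Gzmb turned without control 1 (-0.20) or KO 1 (-0.19). Gzma measured 1083, 944, 990.4 and 711 CPM in effector cells and 147, 2605, 399 and 231 in both-zero cells, where control 2 stood far above the other libraries. The Gzmk call was lost when cells with S1pr5, Cx3cr1 or Klrg1 were kept in (-1.56). Of 10 genes of terminal effector cells tested, 5 rose (Klrc1, Ahnak, Lgals1, Rap1b at 0.50 ± 0.07 and S1pr4 at 0.56 ± 0.08) and 0 fell (median 0.53).

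Most genes of naive and central memory T cells fell: of 20 tested, 1 rose and 13 fell (median -1.44). Tcf7, the factor TCF-1 of naive and stem-like T cells, measured 55.4 and 73.7 CPM in the control libraries and 80.4 and 52.0 in the KO libraries against 225, 189, 248 and 262 CPM (-1.85 ± 0.15, adjusted p = 4.06e-05). Ccr7, the lymph-node homing receptor, measured 21.4, 29.8, 54.5 and 4.49 CPM against 173, 80.4, 195 and 66.6 (-2.41 ± 0.43, adjusted p = 0.0309). Tcf7 was separated in every library, whereas Ccr7 lost its call without control 1 (-2.14) or KO 1 (-2.67). The actin cross-linker Actn1 fell by 1.77, the kinase Txk by 1.38 and the IL-6 receptor gene Il6ra by 2.42 on the log2 scale. The gene that rose was S1pr1, the receptor for egress into blood and lymph (0.52 ± 0.09, adjusted p = 4.82e-04). Klf2, a factor that drives S1pr1, did not pass (0.23 ± 0.09, adjusted p = 0.0711), but did with both-zero cells matched in depth (0.48, adjusted p = 0.00548) and without KO 1 (0.33). Among 13 chemokine and homing receptors tested, 4 rose (Ccr2, Cxcr6, S1pr1 and S1pr4) and 6 fell (median -0.13). Ccr2, the inflammatory chemokine receptor, measured 394, 531, 391 and 530.4 CPM against 92.2, 209.7, 76.0 and 125 (1.92 ± 0.16, adjusted p = 3.01e-04), and Cxcr6 rose by 1.76 ± 0.35 with its call lost without control 1 (1.62), KO 1 (1.87) or KO 2 (1.47). The gut-homing receptor Ccr9 fell by 3.92, Cxcr5 of B-cell follicles by 2.91, Ccr6 by 2.78 and Ccr4 by 1.91.

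Most co-inhibitory and follicular helper genes fell: of 14 tested, 2 rose (Entpd1 at 1.09 ± 0.23 and Havcr2, the receptor TIM-3, at 1.43 ± 0.28) and 9 fell (median -1.97). Izumo1r, Cxcr5, Lag3, Cd160 and Tox were among those that fell, and Pdcd1, which encodes PD-1, did not pass (-0.34 ± 0.13, adjusted p = 0.0702) except without control 2 (-0.40). Of 14 genes that respond to T-cell receptor signals, 0 rose and 8 fell (median -0.61), with Egr1 at -1.49 ± 0.29, Fos at -1.44 ± 0.19 and Junb at -0.63 ± 0.08. Without the library term 2 of them fell, and with DESeq2 5. Cd69, an early activation marker, did not pass (-0.23 ± 0.13, adjusted p = 0.204). Of 7 Th17 genes, 0 rose and 4 fell, namely Ccr6, Ahr (-1.14 ± 0.23), Tmem176a (-2.10 ± 0.12) and Tmem176b (-2.46 ± 0.12), with a median of -1.13, and 0 passed without the library term. Of 6 regulatory T-cell genes, 1 rose (Capg) and 3 fell, namely Ctla4 (-1.56 ± 0.23), Ikzf2 (-2.18 ± 0.26) and Nt5e (-1.17 ± 0.20), with a median of -0.48. Of 15 cytokine receptor genes, 3 rose and 7 fell (median -0.32). Those that rose were Il2rb (1.0 ± 0.08, adjusted p = 7.29e-07), the chain shared by the IL-2 and IL-15 receptors, Il2rg (0.38 ± 0.07) and Ifngr1 (1.11 ± 0.24), and Il4ra fell by 1.09. Ifngr1 lost its call without control 1 (1.07) or KO 1 (1.15).

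Some proliferation genes rose, and their number moved with the setting in both directions. Of 20 tested, 8 rose and 0 fell, and all 20 were above 0 (median 1.11). Ube2c, a mitotic ubiquitin enzyme, rose by 1.46 ± 0.23, the histone H2afz by 0.83 ± 0.15 and the replication helicase gene Mcm5 by 0.59 ± 0.14. With both-zero cells matched in UMIs per cell, which also left out KO 1 (15 matched cells), 1 rose and 2 fell (median 0.27), and with both classes drawn to equal depth 5 rose and 2 fell (median 0.29). With every cell thinned to 1500 UMIs 12 rose and 0 fell (median 0.95), with DESeq2 17 rose, and without the library term 2 rose. With both-zero cells matched and with both classes drawn, Mcm5 turned to -0.31 and -0.33. Without KO 1 H2afz was 0.84, adjusted p = 0.0735. Of the 88 named genes called above, 66 of 86 tested were still called with matched depth, in 3 libraries because KO 1 had too few matched cells, and 85 kept their direction, Mcm5 being the exception. With every cell thinned to 1500 UMIs 63 of 72 were called, and all 72 kept their direction. With cells holding Cd4 and no Cd8a or Cd8b1 UMI, 83 of 86 were called. Without cells that held markers of other cell types or very high UMIs, 79 of 87 were called, all in the same direction. Genes named for large changes had been called and went one way in every library, so kept direction was partly set by the naming. Without the library term, counts also moved by over 1.5 times for the falls among integrin chains (1 in place of 4), chemokine receptors (3 in place of 6) and cytokine receptors (4 in place of 7), and for the rises among cytokine receptors (1 in place of 3), cytotoxic genes (3 in place of 6), selectin ligand genes (3 in place of 5) and Ly6 and Ifitm genes (3 in place of 5). The lone falls among selectin ligand genes and among Ly6 and Ifitm genes were lost. Matched depth also lowered counts in several lists, beside 778 calls over all genes. Falls were 2 in place of 4 among integrin chains, 3 in place of 6 among chemokine receptors and 4 in place of 7 among cytokine receptors. Rises were 4 in place of 6 among cytotoxic genes (median 0.45), 3 in place of 5 among Ly6 and Ifitm genes and 2 in place of 4 among chemokine receptors. Selectin ligand genes kept 5 rises and 1 fall.

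**Figure D2:**
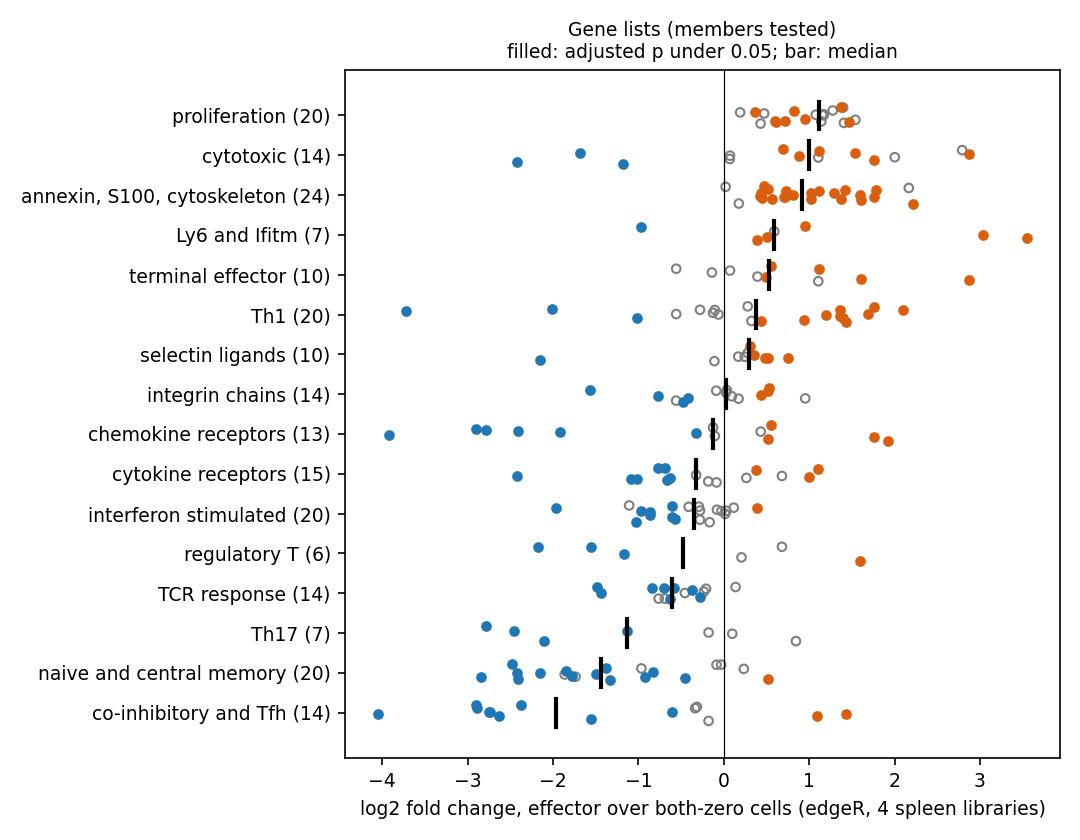
Log2 fold changes of effector over both-zero cells for the tested members of 16 gene lists (points), filled where the adjusted p was under 0.05, with a bar at each list's median. The annexin, S100 and cytoskeleton list has 21 filled points above 0 and none below, and the naive and central memory list has 13 below 0.

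To see which of the 2 chosen genes the pattern followed, cells with only one of them were set beside the effector cells, which are the same cells in each of these comparisons. CD3-positive cells with Itgb1 but no Ly6c2 numbered 1469, and those with Ly6c2 but no Itgb1 numbered 610, with S1pr5, Cx3cr1 and Klrg1 absent as in effector cells. The both-zero cells were not filtered on these 3 genes, so they differ from the other classes in that as well. The part of this in the levels below was not tested. Median UMIs per cell, pooled over the libraries, were 4088 in effector, 3325 in Itgb1-only, 2918.5 in Ly6c2-only and 2483 in both-zero cells. Mean levels over the libraries ran, in the order effector, Itgb1 only, Ly6c2 only and both-zero, as 118, 101, 13.6 and 9.72 CPM for Nrp1. Nrp1 was thus high wherever Itgb1 was. Fut7 ran as 96.7, 106, 11.8 and 6.97 CPM, and S100a4 as 2548, 2313, 579 and 736 CPM. Anxa1 was graded over the 4 classes, at 473, 323, 89.3 and 44.5 CPM. Ccl5 ran the other way, at 1932, 1542, 3899.7 and 7794 CPM, with Itga4 at 64.6, 77.8, 137 and 198 CPM. Ly6c1 was highest with Ly6c2 alone, at 135 CPM against 15.2 in effector cells.

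**Figure D3:**
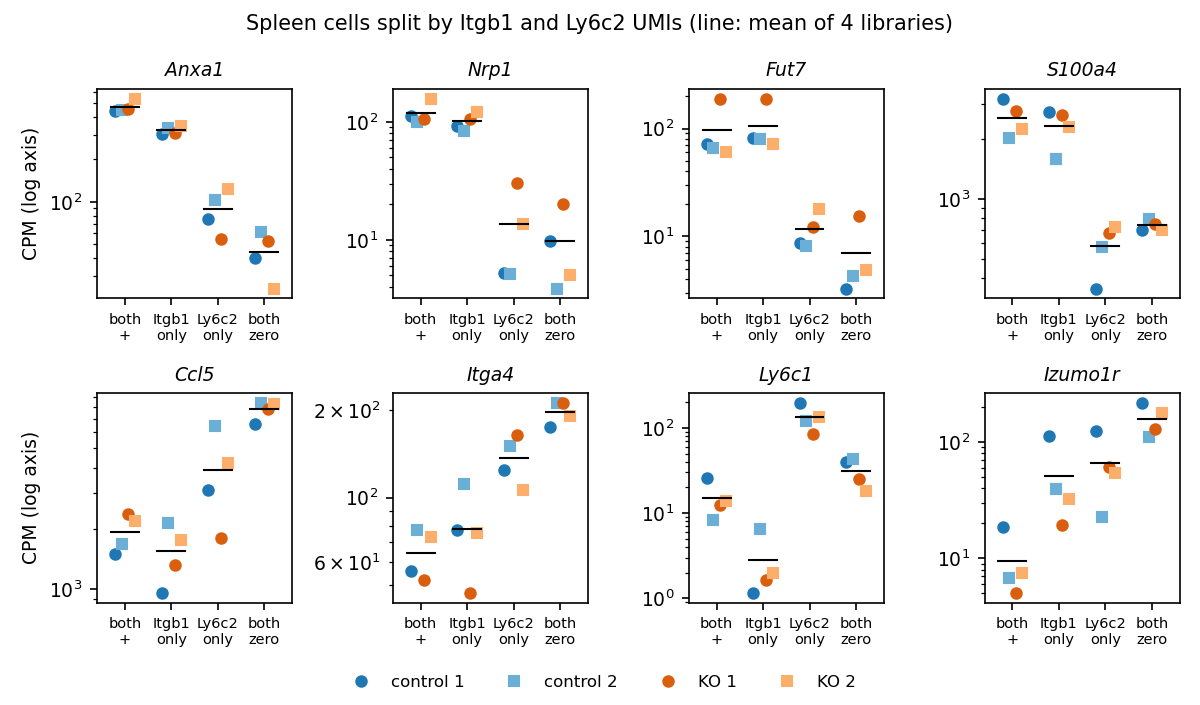
Levels of 8 genes in the 4 spleen libraries (points, CPM on a log axis) for cells with both Itgb1 and Ly6c2, Itgb1 only, Ly6c2 only and neither, with a line at the mean. Nrp1, Fut7 and S100a4 are high in both classes with Itgb1, and Izumo1r is lowest where both genes are present.

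Against Ly6c2-only cells 1518 of 6859 genes were called (22.1%), 761 higher (11.1%) and 757 lower. Nrp1 was higher by 3.51 ± 0.25, adjusted p = 1.85e-14, Csf1 by 2.74 ± 0.42, and the mitotic genes Ccna2 by 2.67 ± 0.22 and Aurkb by 2.50 ± 0.34. Fut7, a marker proposed from these data, was higher by 2.65 ± 0.25, given as a description. Igfbp4 fell by 4.03, Ly6c1 by 3.33, Izumo1r by 2.89, Ccr7 by 2.74 (not without control 1, -2.49), the survival factor Bcl2 by 2.31 and Myc by 2.13 on the log2 scale. Of 20 proliferation genes 18 rose and 0 fell (median 1.58), and of 25 annexin, S100 and cytoskeleton genes 21 rose and 0 fell (median 0.87). The Ly6c2-only cells were shallower than the effector cells, and KO 1 held 24 of them. Depth was not matched in this comparison, and the proliferation count against both-zero cells had moved with matching. Of 19 naive and central memory genes 1 rose (S1pr1, 0.46 ± 0.13) and 13 fell (median -1.45), of 19 interferon-stimulated genes 0 rose and 13 fell (median -0.49), and of 18 Th1 genes 11 rose and 0 fell (median 0.82). The median over all genes was -0.01, and without the library term 599 genes were called. The S1pr1 call was lost without KO 2 (0.36), and without control 2 Csf1 was 4.37, and without KO 2 Aurkb was 3.75.

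Against Itgb1-only cells the differences were fewer: 187 of 7327 genes were called (2.55%), 104 higher (1.42%) and 83 lower (1.13%). Izumo1r was lower by 2.38 on the log2 scale (SE 0.18, adjusted p = 6.05e-19), with Tcf7 at -0.79 ± 0.10, Tnfsf8 (CD30 ligand) at -0.76 ± 0.10 and Tnfrsf4 (OX40) at -0.70 ± 0.12. Higher were granzyme M (Gzmm, 0.84 ± 0.13), the receptor NKG2D (Klrk1, 0.78 ± 0.07, adjusted p = 4.74e-08) and AA467197 (0.68 ± 0.06). Anxa1, a marker proposed from these data, was higher by 0.58 ± 0.06, given as a description. Of 14 cytotoxic genes 6 rose and 1 fell (Lamp1, -0.52 ± 0.10), with a median of 0.32. Of 10 terminal effector genes 5 rose, namely Klrc1 (0.53 ± 0.10), Klre1 (1.46 ± 0.29), Lgals1 (0.23 ± 0.03), Rap1b (0.18 ± 0.05) and Zeb2 (0.93 ± 0.26), and 0 fell (median 0.25). Of 14 co-inhibitory and follicular helper genes 1 rose (Havcr2, 0.75 ± 0.22) and 9 fell (median -0.45), and of 25 annexin, S100 and cytoskeleton genes 8 rose and 0 fell (median 0.15), while the median over all genes was -0.00. When 1 library was left out the call of Klrc1 was lost without KO 1 (0.57), Klre1 without KO 1 (1.04), Zeb2 without control 1 (0.94) or KO 1 (0.87), Rap1b without control 1 (0.15), KO 1 (0.17) or KO 2 (0.20) and Havcr2 without control 1 (0.77), KO 1 (0.80), control 2 (0.77) or KO 2 (0.64). Tnfrsf4 was -0.46 without control 2. Without the library term 0 genes were called here (193 at an unadjusted p under 0.05), and DESeq2 with it called 45. Leaving out control 1 gave 96 calls and leaving out KO 2 gave 104.

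The nearest cells outside the rule were the 418 that met the CD3, Itgb1 and Ly6c2 limits but held S1pr5, Cx3cr1 or Klrg1, genes of long-lived or terminal effector cells. They numbered 147 and 35 in control and 112 and 124 in KO. Their median UMIs per cell were 6776 and 3347 in control and 5501 and 4056 in KO. Effector cells had 6062, 2914.5, 6976.5 and 3813 in the same order, and depth was not matched. Between the effector cells and these, 242 of 7063 genes were called (3.43%), 139 higher in effector cells (1.97%) and 103 lower (1.46%), with a median of -0.00 over all genes. Without control 1 148 genes were called, without KO 1 153 and without KO 2 151. Zeb2, a factor of terminal effector cells, measured 5.88 and 5.21 CPM in the control libraries and 20.9 and 21.3 in the KO libraries in effector cells against 59.2, 98.7, 146 and 122 CPM (-2.85 ± 0.17, adjusted p = 8.67e-28). Ccl5 measured 1492, 1683, 2375 and 2175 CPM against 8611, 7633, 12673 and 9397 (-2.29 ± 0.05, adjusted p = 2.96e-24), and Itga4 55.9, 77.4, 52.0 and 73.0 CPM against 130.4, 181, 179 and 122 (-1.20 ± 0.12, adjusted p = 1.43e-12). All 3 were lower in effector cells in each library without overlap. The Aiolos gene Ikzf3 fell by 1.70, the receptor Klre1 by 1.50, Plek by 0.93 and H2-Eb1, an MHC class II gene of antigen-presenting cells, by 0.94 on the log2 scale. H2-Eb1 reached 128 CPM in the second class of KO 1, where 5 cells over the 4 libraries also held 683 UMIs of the monocyte gene Lyz2, and without KO 1 it was -0.34, adjusted p = 0.849.

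Higher in the effector cells than in those neighbours were genes of less differentiated T cells: of 16 naive and central memory genes tested 8 rose and 2 fell (Klf2 at -0.20 ± 0.05 and Txk at -0.72 ± 0.20), with a median of 0.45. The classes were split by S1pr5, Cx3cr1 and Klrg1, so genes that vary with these differ by that choice. Without the library term 0 genes were called higher in effector cells. Id3, a factor of memory precursors, measured 40.7, 50.6, 77.1 and 31.4 CPM against 14.6, 32.9, 26.8 and 13.8 (1.40 ± 0.20, adjusted p = 1.86e-07), and Satb1, a chromatin organiser, 159, 194, 209 and 84.2 CPM against 96.9, 82.3, 76.7 and 41.3 (1.05 ± 0.12, adjusted p = 1.04e-11). Tcf7 rose by 0.72 ± 0.16, Ccr7 by 0.99 ± 0.28 and Il7r, the IL-7 receptor, by 0.51 ± 0.09. Without KO 1 Tcf7 was 0.64, adjusted p = 0.0565, Ccr7 0.67, adjusted p = 0.559 (1.59 without control 1) and Klf2 -0.13, adjusted p = 0.331, and Txk also lost its call without each of control 1, KO 1 and KO 2 (-0.56, -0.75 and -0.71). Of 8 chemokine receptors 5 rose, namely Gpr183 (1.10 ± 0.16), Ccr7, Cxcr3 (0.46 ± 0.08), Cxcr6 (0.37 ± 0.06) and Ccr2 (0.23 ± 0.06), and 1 fell. Rgs10 rose by 1.28 ± 0.16 and Spef2 by 1.05 ± 0.19. Of the markers proposed from these data, Fut7 was higher by 1.21 ± 0.14, given as a description, while Anxa1 and Ifitm1 did not pass (0.18 ± 0.07 and 0.92 ± 0.28). Ifitm1 passed without KO 2 (0.70), Anxa1 without control 1 (0.35), Spef2 did not without KO 1 (0.87), and Ccr2 not without control 1, KO 1 or KO 2 (0.25, 0.22 and 0.23). Of 8 Ly6 and Ifitm genes 4 rose, namely Ifitm2 (0.98 ± 0.05), Ifitm3 (0.43 ± 0.06), Ly6a (0.37 ± 0.05) and Ly6e (0.32 ± 0.05), and 0 fell (median 0.46).

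Granule genes were lower in the effector cells than in the neighbours. Of 14 cytotoxic genes 0 rose and 5 fell (median -0.38): Gzmm (-0.84 ± 0.14), Gzmb (-0.74 ± 0.08), Cst7 (-0.59 ± 0.13), Serpinb9 (-0.46 ± 0.11) and Nkg7 (-0.42 ± 0.05). Gzma and Gzmk did not pass (-1.35 ± 0.30, adjusted p = 0.230, and -1.90 ± 0.36, adjusted p = 0.144), although Gzmk did without control 1 (-2.34) or KO 1 (-1.60). Of 9 terminal effector genes beyond the rule 0 rose and 4 fell, namely Zeb2, Klre1, Gzmb and Rap1b (-0.34 ± 0.06), with a median of -0.34. Of 18 Th1 genes 3 rose (Cxcr3, Cxcr6 and Il18r1 at 0.30 ± 0.08) and 5 fell (among them Ccl5, Fasl at -0.65 ± 0.18, Il18rap at -0.50 ± 0.13 and Tbx21 at -0.38 ± 0.11), with a median of -0.17. Of 20 proliferation genes 0 rose and 7 fell (median -0.18). Of 25 annexin, S100 and cytoskeleton genes 2 rose (Capg at 0.36 ± 0.06 and S100a6 at 0.22 ± 0.04) and 2 fell (Anxa2 at -0.31 ± 0.07 and Lgals3 at -0.35 ± 0.06), with a median of 0.01. Several small differences lost their call when 1 library was left out: Tbx21 without control 1 (-0.30), control 2 (-0.34) or KO 2 (-0.32), Fasl without KO 1 (-0.63), control 2 (-0.59) or KO 2 (-0.51), Il18r1 without KO 1 (0.24) or KO 2 (0.26), Il18rap without control 1 (-0.42) or KO 1 (-0.39), Cst7 without KO 2 (-0.49), Serpinb9 without control 1 (-0.45) or KO 2 (-0.43), S100a6 without control 1 (0.20) or KO 2 (0.20) and Anxa2 without control 1 (-0.22). Without the library term 6 genes were called in this comparison, all lower in effector cells, and DESeq2 with it called 86.

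The share of effector cells differed more between the control libraries than between the genotype means. Of CD3-positive spleen cells they were 29.4% (95% exact binomial interval 26.8 to 32.1) in control 1 and 10.98% (9.99 to 12.04) in control 2, and 19.1% (16.4 to 22.1) in KO 1 and 16.7% (15.5 to 17.9) in KO 2. The control libraries lay on either side of both KO libraries. The mean was 20.2% in control and 17.9% in KO, a difference of -2.30 percentage points (2-sided exact permutation p = 1, where 2 against 2 allows no p below 0.333). Within number 1 the KO share was 10.3 points lower (-10.3), and within number 2 it was 5.70 points higher, so the direction turned with the batch. Leaving out control 1 gave 6.91 points and leaving out control 2 gave -11.5. With every cell thinned to 1500 UMIs before the limits were applied, the shares were 16.4% and 6.73% in control and 7.85% and 10.1% in KO.

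The same limits found far fewer cells in the gut. In colon lamina propria they took 20 and 49 cells in control and 50 and 36 in KO, which was 1.45% and 1.51% of CD3-positive cells in control and 1.83% and 1.10% in KO. Spleen averaged 19.0% and colon 1.47%, a difference of 17.6 percentage points (2-sided exact permutation p = 0.0286, the smallest that 4 against 4 allows). With tissue exchanged only within each replicate number, the exact permutation p was 0.0556, the smallest that the 36 arrangements allow. The 4 spleen values all lay above the 4 colon values, also with every cell thinned to 1500 UMIs before the limits (difference 9.93 points). Leaving out 1 library gave 14.1 to 20.3 points, with 0.0571 the smallest p then possible. In colon epithelium 23 cells (0.630%) in control and 19 (0.576%) in KO met the limits, and in small intestinal lamina propria 4 (0.193%) and 2 (0.246%). Intervals cover counting error only.

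**Figure D4:**
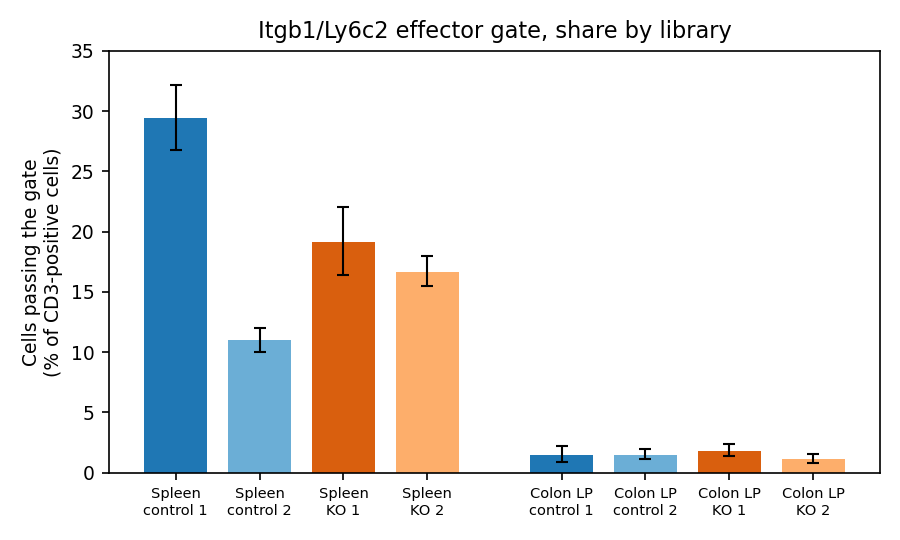
Percent of CD3-positive cells that met the limits for effector cells in each library of spleen and colon lamina propria (bars, with 95% exact binomial intervals), control and KO. Spleen shares run from 10.98% to 29.4% with the control libraries at both ends, and colon shares from 1.10% to 1.83%.

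The comparison of KO with control effector cells asked whether loss of the IL-23 receptor on the transferred cells went with a change in them. No gene passed: 0 of 8105 (0%) were called, while 164 (2.02%) had an unadjusted p under 0.05. DESeq2 also called 0 (40 unadjusted). With the replicate number as a further term 0 passed (323 unadjusted). The groups did not overlap for 2102 genes (25.9%). By p-value the first genes with higher KO levels were Hba-a1, Zeb2, Ccng1, Ifit1 and Hbb-bt, and with lower levels Acp5, Dusp2, Cbr1, Dtx1 and Kbtbd11, none of which passed. With no filter on low counts, which tested 13173 genes, 7 of these 10 were called: Hba-a1 (3.25, adjusted p = 8.82e-08), Zeb2 (1.89, adjusted p = 0.0186), Ccng1 (1.02, adjusted p = 0.00488), Ifit1 (2.23, adjusted p = 0.02003), Hbb-bt (3.13, adjusted p = 0.0180), Acp5 (-1.0, adjusted p = 0.00540) and Dtx1 (-1.07, adjusted p = 0.00488). Hba-a1, the globin alpha gene of red cells, measured 3.36 and 1.49 CPM in the control libraries and 21.8 and 29.2 in the KO libraries (3.24 ± 0.45, adjusted p = 0.352), beside the erythroid marker sums given above, and Hbb-bt gave 3.13 ± 0.78, with an adjusted p of 1.0 for each of the others. The part of red-cell RNA in the other differences was not tested. Zeb2 measured 5.88 and 5.21 CPM in the control libraries and 20.9 and 21.3 in the KO libraries (1.89 ± 0.37), and the log2 ratio of KO to control was 1.67 within number 1 and 1.85 within number 2, so both KO values lay above both control values. Ccng1, cyclin G1, measured 82.3 and 64.0 CPM in the control libraries and 142 and 157 in the KO libraries (1.02 ± 0.20), and the interferon-induced Ifit1 3.78 and 2.23 CPM in the control libraries and 11.7 and 18.0 in the KO libraries (2.22 ± 0.47). Acp5, an acid phosphatase, measured 131 and 181 CPM in the control libraries and 71.2 and 82.7 in the KO libraries (-1.0 ± 0.19), the phosphatase Dusp2 154 and 175 CPM in the control libraries and 105 and 80.5 in the KO libraries (-0.83 ± 0.21) and Dtx1, a Notch regulator, 87.0 and 132 CPM in the control libraries and 62.8 and 41.2 in the KO libraries (-1.07 ± 0.29). Cbr1 gave -1.01 ± 0.26 and Kbtbd11 -0.97 ± 0.28.

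None of the genes that define these cells passed with all 4 libraries. The fitted KO over control difference was 0.04 ± 0.21 for Itgb1, 0.16 ± 0.18 for Anxa1, 0.04 ± 0.25 for Pglyrp1, 0.84 ± 0.74 for Fut7, 0.68 ± 1.02 for Ifitm1 and -0.58 ± 0.23 for Ly6c2. Every cell had to hold Itgb1 and Ly6c2 UMIs to be taken. The values of Itgb1 and Ly6c2 thus cannot show whether genotype changed these genes. Fut7 rested on KO 1: it passed without KO 2 (1.49, adjusted p = 0.02004) and was -0.24 without KO 1. Ly6c2 was lower in KO within both numbers (-0.96 and -0.23), as were Cxcr3 (-0.75 and -0.39), Gzmb (-0.46 and -0.50) and Cd69 (-0.45 and -0.79), while Ccl5 was higher (0.67 and 0.37), with an adjusted p of 1.0 for each of these 5. They are some of the preset genes, and the share of all genes with the same sign within both numbers was not counted. A shared sign is thus no evidence of a KO difference. No member of any list passed. The largest list medians were 0.47 for the 6 Th17 genes, of which 5 were above 0, and 0.43 for the 20 proliferation genes, all above 0. They were 0.39 for interferon-stimulated, 0.29 for regulatory T-cell, -0.26 for naive and central memory, 0.11 for Th1 and 0.08 for annexin, S100 and cytoskeleton genes, beside 0.01 over all genes. Leaving out KO 1 gave 8 calls (Ccnb1, Ccr7, Cdk1, Cdkn2c, Fbxo5, Hba-a1 at 3.38, Nusap1 and Prc1) and leaving out KO 2 gave 9 (Cd74, Cphx3, Fut7, Fxyd4, H2-Aa, H2-Ab1, H2-Eb1, Ifi204 and Klre1), each against a lone KO library assumed to vary like the others, and these genes were named after their values were seen. The H2 genes are among the dendritic-cell markers, which were highest in KO 1 (391 CPM in effector cells), and the part of such cells in these calls was not tested. Whether the KO difference was particular to effector cells was tested as its difference from that in both-zero cells. There, 0 of 8806 genes were called (0%), while 245 (2.78%) had an unadjusted p under 0.05. DESeq2 called 0 (13 unadjusted). The smallest p-values were for Ccl1, a chemokine (adjusted p = 0.357), Acsbg1 (1.55 ± 0.28), Dpp4 (-0.97 ± 0.26) and Snap23 (-0.93 ± 0.26), and Cd69 gave -0.64 ± 0.21. Ccl1 measured 0, 2.23, 12.6 and 3.37 CPM in effector cells and 0.815, 44.8, 0 and 2.08 in both-zero cells, with the both-zero cells of control 2 far above the rest. Leaving out control 1 gave 70 calls, among them Ccl1, also called without KO 2, and Acsbg1 (1.58).

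The rule did not use the colon libraries, so the genes, including the 4 further markers, could be tested there in cells that met the same limits. Against both-zero cells of the same library, 393 of 8488 genes were called (4.63%), 149 higher (1.76%) and 244 lower (2.87%), with a median of -0.07 over all genes. DESeq2 called 176 genes, 114 higher and 62 lower, and without the library term 47 were called. Leaving out control 1 gave 252 calls, KO 1 181 and KO 2 158. The colon cells meeting the limits were deeper than the both-zero cells, with median UMIs per cell of 8286 against 4373.5 in control 1, 3230 against 2847 in control 2, 6388 against 3857 in KO 1 and 2715 against 2291 in KO 2. With both-zero cells matched in UMIs per cell, 4377 genes passed the filter and 209 were called, 121 higher and 88 lower. Of the 44 named colon genes called below, 35 could then be tested, 30 were still called and all 35 kept their direction; Ccr7 (0.31), Il12rb2 (-0.58), Rora (-0.38), Stat4 (-0.50) and Zeb2 (-0.65) lost the call. All 4 further markers rose. Anxa1 measured 189 and 322 CPM in the control libraries and 331 and 403 in the KO libraries against 39.4, 47.8, 34.3 and 53.6 CPM in the same order (2.80 ± 0.16, adjusted p = 9.37e-64). Nrp1 measured 42.1 and 53.7 CPM in the control libraries and 45.3 and 75.1 in the KO libraries against 1.66, 0.456, 2.83 and 1.41 CPM (4.84 ± 0.43, adjusted p = 1.55e-26). Neither gene overlapped between the classes. Fut7 measured 63.1 and 21.5 CPM in the control libraries and 11.3 and 9.38 in the KO libraries against 0.185, 0.684, 0.0975 and 0.423 CPM (5.99 ± 0.67, adjusted p = 2.93e-16), from 21 and 11 UMIs in all. Ifitm1 measured 3072 and 2123 CPM in the control libraries and 1330.2 and 3828 in the KO libraries against 57.7, 136, 84.9 and 178 CPM (4.45 ± 0.40, adjusted p = 0.0212), and Pglyrp1 110.5 and 220.4 CPM in the control libraries and 90.6 and 253 in the KO libraries against 20.3, 127, 26.8 and 58.5 CPM (1.60 ± 0.19, adjusted p = 2.37e-14). Ifitm1 was 4.62, adjusted p = 0.0760 without control 2 and 4.48, adjusted p = 0.102 without KO 2. Pglyrp1 overlapped between libraries, since the control 2 both-zero value exceeded 2 of the values in cells meeting the limits, but it was higher within each library.

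S1pr1 and Klf2, which act in the exit of T cells from tissue, rose in the colon cells. S1pr1 measured 163 and 258 CPM in the control libraries and 142 and 178 in the KO libraries against 34.4, 75.1, 38.6 and 28.2 CPM (2.01 ± 0.18, adjusted p = 1.48e-24), and Klf2 899 and 1258 CPM in the control libraries and 583 and 1464 in the KO libraries against 211, 573, 202 and 265 CPM (1.74 ± 0.11, adjusted p = 3.35e-46). Neither gene overlapped between the classes, although for Klf2 the KO 1 value lay close to the highest both-zero value. Other large rises at a mean of 20 CPM or more were in AB124611 (3.63 ± 0.34), Ggt1 (2.71 ± 0.25), Rom1 (2.68 ± 0.35), Sema4a (2.26 ± 0.32), Id3 (1.96 ± 0.42) and Ifitm3 (1.88 ± 0.12). Large falls were in Ccl4 (-3.58 ± 0.34), the enkephalin gene Penk (-2.94 ± 0.48), the growth factor Areg (-2.67 ± 0.29), the chemokine Xcl1 (-2.53 ± 0.29), Actn2 (-2.42 ± 0.25), Izumo1r (-2.24 ± 0.43), Cd160 (-2.19 ± 0.47) and P2rx7 (-1.82 ± 0.43). Itga4 was lower and Itgb7 higher, as in spleen (-1.06 ± 0.25, adjusted p = 8.07e-04, and 0.90 ± 0.11, adjusted p = 1.77e-12). Ccl5, S100a4, Tbx21, Ifng and Tcf7 did not pass (-1.65 ± 0.63, 2.0 ± 0.54, 0.25 ± 0.25, -0.22 ± 0.15 and -0.53 ± 0.21). Without control 1 Ccl5 passed at -1.16, without control 2 S100a4 passed at 2.47, without KO 1 Itga4 was -0.99, adjusted p = 0.0719, and the calls of Id3 (1.68) and P2rx7 (-1.61) were lost without KO 2, with Id3 also lost without control 1 (1.63), and P2rx7 was -2.76 without KO 1.

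By list, 15 of 25 annexin, S100 and cytoskeleton genes rose in the colon cells and 0 fell (median 0.67). Of 18 naive and central memory genes 5 rose, namely S1pr1, Klf2, Id3, Ccr7 (0.70 ± 0.23) and Lef1 (0.79 ± 0.24), and 0 fell (median -0.06). Of 20 Th1 genes 0 rose and 5 fell, among them Eomes (4 UMIs in these cells and 558 in both-zero cells), Il12rb2 (-0.80 ± 0.23), Stat4 (-0.71 ± 0.18) and Tnf (2 and 471 UMIs), with a median of -0.31. Of 16 co-inhibitory and follicular helper genes 0 rose and 6 fell (median -0.62). Of 10 Th17 genes 0 rose and 5 fell: Il17a, the defining cytokine (2 UMIs in these cells and 1017 in both-zero cells), Maf (-0.72 ± 0.17), Rora (-0.60 ± 0.13), Tmem176a (-1.13 ± 0.23) and Tmem176b (-1.30 ± 0.22), with a median of -1.21. Of 15 cytotoxic genes 3 rose, namely Gzmm (3.10 ± 0.46), Klrc1 (1.21 ± 0.12) and Klrd1 (1.38 ± 0.17), and 1 fell (Gzmb, -0.51 ± 0.12), with a median of 0.07. Of 20 proliferation genes 0 rose and 1 fell (Tuba1b, -0.46 ± 0.14), with a median of 0.04. With 20 to 50 cells a library, many of these calls were lost when 1 library was left out: Ccr7 without control 1 (0.19), control 2 (0.77) or KO 2 (0.70), Lef1 without control 1 (0.63), KO 1 (0.76) or KO 2 (0.82), Il12rb2 without control 1 (-0.69), KO 1 (-0.90) or KO 2 (-0.71), Stat4 without control 1 (-0.51), KO 1 (-0.76) or KO 2 (-0.67), Maf without KO 1 (-0.54), Gzmb without KO 1 (-0.49), control 2 (-0.38) or KO 2 (-0.51) and Tuba1b without control 2 (-0.38) or KO 2 (-0.30), while Eomes, Tnf and Il17a lost theirs without at least 1 library each. Ccr7 was 1.18 without KO 1.

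Of 7822 genes tested in both tissues, 1833 were called in spleen (23.4%) and 370 in colon (4.73%). The 233 genes called in both were 12.7% of the spleen calls and 63.0% of the colon calls. Of these, 217 (93.1%) went the same way and 16 went opposite ways, among them Ccr7, Il12rb2 and Lef1. Both tissues were split by the same limits, and the cells meeting them were deeper in both. The part of these in the overlap was not tested. The difference between the tissues was then tested itself, as the colon difference minus the spleen difference. Of 8769 genes 247 were called (2.82%), 47 with a more positive difference in colon (0.536%) and 200 with a more negative one (2.28%), while DESeq2 called 63 and 82. AB124611 differed by 2.44 ± 0.30, adjusted p = 3.05e-07, S1pr1 by 1.41 ± 0.19, adjusted p = 1.33e-06, Gzmk by 1.64 ± 0.41, adjusted p = 0.0378 and Fut7 by 2.05 ± 0.56, adjusted p = 0.0298. Il12rb2 differed by -2.54 ± 0.29, adjusted p = 4.12e-08, Csf1 by -2.80 ± 0.47, adjusted p = 1.55e-04 and Lmna by -2.49 ± 0.25, adjusted p = 2.28e-06, each being higher in the spleen effector cells than the colon cells showed. Nrp1 and Anxa1 did not pass (0.52 ± 0.77 and -0.79 ± 0.44). Leaving out spleen control 2 gave 508 calls, spleen KO 2 111, colon KO 1 103 and colon KO 2 103, and the call was lost for Fut7 without spleen KO 1 (1.97), spleen KO 2 (1.98), colon control 1 (1.33) or colon KO 1 (2.03) and for Gzmk without spleen control 2 (1.59), colon KO 1 (1.62), colon control 2 (1.38) or colon KO 2 (1.83).

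**Figure D5:**
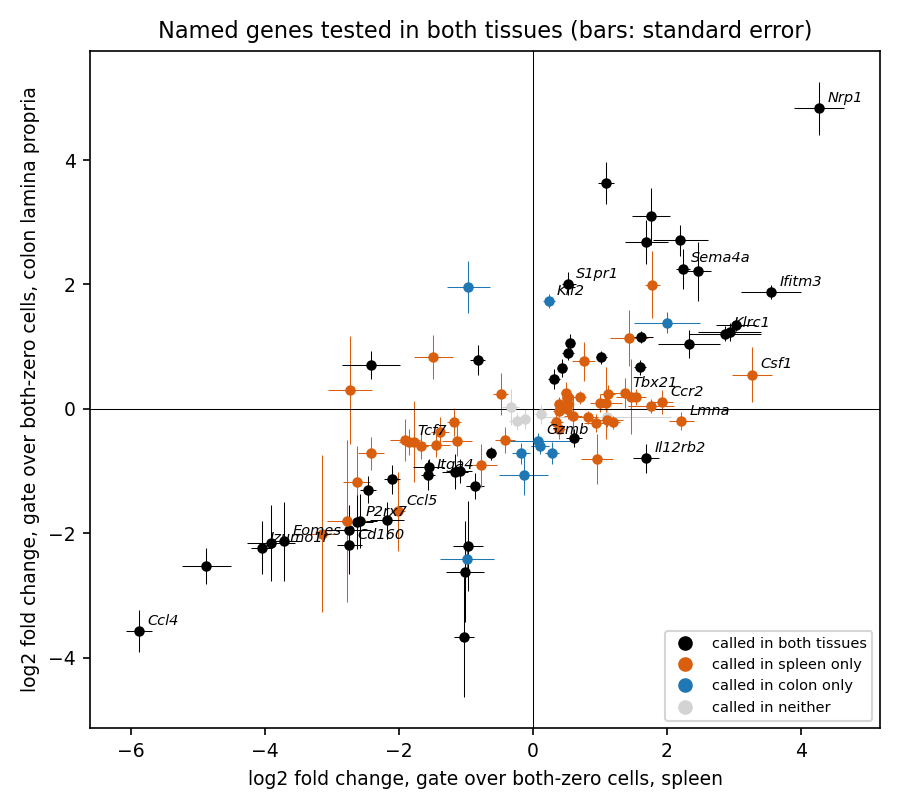
Log2 fold change of cells meeting the limits over both-zero cells in spleen (x axis) and colon lamina propria (y axis) for the 106 named genes tested in both tissues (points, bars are standard errors), coloured by where the gene was called. Nrp1, Ifitm3 and Sema4a lie high on both axes, Ccl4 and Izumo1r low on both, and Il12rb2 and Lmna are raised in spleen but not in colon.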

How the data were processed

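Single-cell libraries of the 3′ end of transcripts were deposited by the authors as tables of raw UMI counts per gene and cell. Cell Ranger 2.0.2 and the mm10 build are named in the submitters' processing notes, and the sources used here do not say how cells were filtered. UMI counts were summed per library and cell class (at least 20 cells) and tested with edgeR 4.0.16 in R 4.3.3 (TMM scaling, low counts filtered, quasi-likelihood test, Benjamini-Hochberg adjustment at 0.05), with DESeq2 1.42.0 as an alternative. Comparisons of classes had the library as a term, and KO against control had none. No doublet caller was run: cells with markers of other types, or among the 2% with the most UMIs, were left out as an alternative.

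Replicate numbers paired the libraries through the batch column of the deposited cell table, which equals the number for every cell; control 1 and KO 1 deviated together (correlation 0.54 over 4881 genes). Genes named were a preset list, the 10 largest changes each way among called genes at a mean of 20 CPM or more that went one way in every library, and up to 4 members per list by p. Where none passed, the 5 smallest p each way were named, and members completing a count of 5 or fewer were named after their values were seen. The members and lists were chosen with earlier results of these data known. The comparisons with Itgb1-only and Ly6c2-only cells, the test between tissues, the permutation within replicate numbers, depth matching in colon, and the settings that drew both classes to equal UMIs, thinned cells to 1500 UMIs or removed cells with Eomes or Gzmk were chosen after seeing the data. The fits were tested on simulated data. Gene coordinates are from GENCODE (GRCm38) and promoters from RefSeq. T-cell receptor genes and gamma-delta markers were not analysed here, and some genes that the naming rule picks are not reported here.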

Additional observations from a re-analysis of the deposited data

Results flagged for a closer look

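In 3 genes, 1 of the 4 spleen libraries lay far from the other 3 in the log2 ratio of effector to both-zero cells, which chance gives in about 1 of 20 sets of values. Many genes were looked at, so chance alone gives some such genes, and the count of 3 is a description. Serpinb9 was at 2.18 in control 1, Spef2 at 3.49 in KO 1 and Tmem176b at -2.02 in KO 2.

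Among the named genes, 31 differed between colon and spleen by the test of the difference itself (colon log2 fold change minus spleen log2 fold change, edgeR, adjusted p under 0.05). Over all genes 247 of 8769 (2.82%) did. Many named genes were chosen for their differences in spleen or colon, so their count is a description and not a rate. The difference was positive for 12: AB124611 (2.44), Xcl1 (2.30), Egr1 (2.26), Fut7 (2.05), Gzmk (1.64), Lef1 (1.53), Klf2 (1.42), S1pr1 (1.41), Tcf7 (1.25), Tmem176b (1.10), Lamp1 (1.0) and Cst7 (0.91). It was negative for 19: Csf1 (-2.80), Il12rb2 (-2.54), Lmna (-2.49), Ly6g5b (-1.84), Id2 (-1.50), Ifngr1 (-1.37), Ifng (-1.24), Tuba1b (-1.14), Stat4 (-1.06), H2afz (-1.04), Capg (-1.01), Il2rb (-0.98), Ahnak (-0.95), Igtp (-0.79), Rora (-0.76), Cd44 (-0.63), Ly6a (-0.60), Nkg7 (-0.60) and Ly6e (-0.49). The spleen comparison had more cells per library than the colon one, and the part of that in these differences was not tested.

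Cells that met the same limits also occurred in tissues outside the comparisons, above the limit that a count of 0 allows: 19 in the colon epithelium of KO 2, 23 in that of control 2 and 4 in the small intestinal lamina propria of control 2.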

How the results depend on the processing

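Alternatives moved the number of called genes. Kept directions are a weak check, because genes named for large changes were called and went one way in every library. Effector against both-zero cells gave 653 calls without the replicate block (the library term), 1016 with DESeq2, 778 with both-zero cells matched in UMIs per cell, 1124 with both classes drawn to equal UMIs, 930 with thinned cells, and 966 to 2220 with 1 library left out. Against cells with S1pr5, Cx3cr1 or Klrg1 the counts were 6 without the block, 86 with DESeq2 and 148 to 257 with 1 library left out. Against Itgb1-only cells they were 0, 45 and 96 to 189, and against Ly6c2-only cells 599, 825 and 1018 to 1432. In colon they were 47, 176 and 158 to 367, with 209 at matched UMIs, and DESeq2 raised the share of higher genes from 37.9% to 64.8%. Between tissues DESeq2 gave 145 calls and leaving out 1 library 103 to 508; the share of higher genes was 19.0% with TMM, 40.4% with DESeq2 size factors and 43.4% with DESeq2.

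KO against control gave 0 calls with the replicate block, 14 with no filter on low counts and 0 to 9 with 1 library left out. Its difference between classes gave 4 with no filter, 15 at matched UMIs, 1 with the Itgb1 limit at 1 UMI, 1 with cells holding Cd4 and no Cd8, and 0 to 70 with 1 library left out. The share difference between genotypes ran from -11.5 to 6.91 points with 1 library left out, and that between tissues from 14.1 to 20.3; with the replicate block (tissue exchanged within each number) the latter stayed 17.6 with an exact permutation p of 0.0556.

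Directions turned for Cd4 (-0.20, cells holding Cd4), Cxcr3 (0.011 at matched UMIs, 0.067 with both drawn), Gzmb (-0.70 at matched UMIs, -0.52 with both drawn, -0.27 thinned, -0.20 to 0.49 with 1 library left out), Mcm5 (-0.31 at matched UMIs, -0.33 with both drawn), Ifng in colon (0.22 at matched UMIs), Fut7 in KO against control (-0.24 to 1.49 with 1 library left out) and Gzmk (9.04, where both-zero cells with Gzmk were removed by construction). For the others the cause was not tested. Of 95 genes cited for effector against both-zero cells, 1416 values over the alternatives kept direction and call, 147 lost the call, 12 gained it and 11 turned. The colon comparison rests on 20 to 50 cells per library that met the limits.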

Other observations

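Nrp1, which rose in effector cells, is a chromosomal neighbour of Itgb1, on which the cells were chosen. In the GRCm38 annotation Nrp1 lies at chr8:128358604-128503363 and Itgb1 at chr8:128685654-128733200, both on the plus strand, with 182290 bases between them. That interval holds 3 annotated genes, of which 0 are protein-coding.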
